A study of Danio rerio with 18 samples.

Results

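The blood of a fish carries a defence system and a clotting system that are both built from proteins made largely in the liver, and the genes of these systems were followed here through 7 groups of zebrafish. The gene names asked for were 40 complement and coagulation symbols, and the genes were found by name, with no threshold on their values. In the table of 31901 genes, 38 of these symbols were found, and 2 of them, c6 and proca, each stood for a pair of identifiers, so that 40 identifiers were followed. The pairs are written c6-1 and c6-2 and proca-1 and proca-2. The symbol cfi was not matched. The symbol c4b was matched only through its Ensembl identifier, which the table lists under another name, so its values are given below outside all counts of genes.

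RNA came from whole zebrafish (Danio rerio) of 3 genotypes at 2 ages. The allele kif7co63 is a small CRISPR-Cas9 change in an early exon of kif7, which encodes a kinesin of Hedgehog signalling and of the tip of the primary cilium. Fish with 2 copies of it, kif7co63/co63, can develop a curved spine as juveniles. At 6 weeks past fertilization (wpf), single fish were sequenced, 3 in each of the groups AB (wild type), kif7co63/+, kif7co63/co63 without scoliosis and kif7co63/co63 with scoliosis. At 4 days past fertilization (dpf), each library was a pool of 20 embryos, with 2 pools each of AB, kif7co63/+ and kif7co63/co63, and the labels give no later spinal shape for these embryos. The homozygous fish were bred from homozygous parents of 1 mutant line, so that the allele and the family background of the line cannot be told apart.

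The libraries held between 44503110 and 69698533 assigned reads. Levels are given in CPM, the usual unit of counts relative to library size, scaled by the trimmed mean of M values over all 18 libraries. The gene kif7 stood at 41.7 to 47.7 CPM in AB at 6 wpf and at 23.6 to 32.3 CPM in the 9 other libraries of that age. At 4 dpf it ranged from 10.8 to 21.5 CPM, and these extremes were the pair of kif7co63/co63 pools. The pair stood apart from each other in other ways too: kif7co63/co63 pool 1 held 5085 CPM of 7 skeletal muscle genes summed and pool 2 held 32502, against 13219 to 18184 in the other 4 pools. At 6 wpf, 7 oocyte genes summed to 1819 to 2055 CPM in AB and 1015 to 1679 in kif7co63/+, but to 0.764 to 423 in non-scoliotic and 1.40 to 186 in scoliotic fish. Genes of erythrocytes (5 symbols, 2022 to 3452 CPM in AB), skeletal muscle (7 symbols, 18861 to 24338) and thrombocytes (6 symbols, 37.7 to 39.4) were higher in both homozygous groups. Their ranges over the 6 homozygous fish were 4660 to 5989, 37889 to 52265 and 51.8 to 63.1 CPM. In kif7co63/+ fish they were 2225 to 3432, 29339 to 31534 and 40.7 to 46.3 CPM. Muscle and thrombocyte genes thus lay above AB in kif7co63/+ fish too, while erythrocyte genes overlapped AB. The part of these differences in the results below was not tested.

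Complement is a chain of plasma proteases and binding proteins that marks and punctures microbes. Its 3 starts, classical, lectin and alternative, meet at C3, whose cleavage leads through C5 to the membrane attack complex of C6, C7, C8 and C9, while factor H and vitronectin restrain the chain. Coagulation starts when tissue factor on cells outside the vessel meets factor VII, runs through factors IX, X and V to thrombin, and ends in a fibrin mesh that plasmin dissolves. Zebrafish carry extra copies of several of these genes, among them a cluster of c3a genes on chromosome 1, the c3b genes on chromosome 22, and the pairs c7a and c7b, f3a and f3b, vtna and vtnb.

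Of the 40 identifiers, 36 passed the filter on low counts in each comparison. The other 4 never exceeded 3 reads in a library: cfd, the protease of the alternative start, f9a, a factor IX gene, serpinc1, antithrombin, and kng1, kininogen, had 0 reads in 13, 16, 17 and 15 of the 18 libraries. A count of 0 allows a level of up to 0.0430 to 0.0674 CPM of the unscaled library total, depending on the library. That limit holds only for the libraries with 0 reads of a gene. In the other libraries these annotated gene models had at most 3 reads, too few to give a level. Per kilobase of gene model, the fibrinogen beta and alpha chain genes stood highest in AB at 6 wpf, with fgb at 222 and fga at 175 CPM per kb. They were followed by c3a.1 at 131, plg (plasminogen) at 85.5, c9 at 69.8 and f2 (prothrombin) at 67.1 CPM per kb. The order ended with masp1, a lectin pathway protease, at 1.37 and c6-2 at 0.168 CPM per kb. Summed over all 40 identifiers, the genes made up 3354 to 3420 CPM in AB, 3410 to 3904 in kif7co63/+, 4030 to 4903 in non-scoliotic and 3698 to 4772 in scoliotic fish at 6 wpf. At 4 dpf the sum was 1615 to 1797 CPM in AB, 1177 to 1541 in kif7co63/+ and 1361 to 1585 in kif7co63/co63 pools.

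Each pair of groups was compared with edgeR's quasi-likelihood test over all genes, and a gene was called at a Benjamini-Hochberg adjusted p under 0.05. Against AB at 6 wpf, 11 of the 36 genes were higher and 3 lower in scoliotic fish, where 42.1% of all genes tested were called, 19.2% higher and 23% lower. In non-scoliotic fish 15 were higher and 4 lower, with 43.1% of all genes called (21.2% higher and 21.9% lower). In kif7co63/+ fish 11 were higher and 2 lower, with 36.2% called (18.6% higher and 17.6% lower). In either direction 38.9%, 52.8% and 36.1% of these 36 genes were called, against 42.1%, 43.1% and 36.2% of all genes. The 36 genes were more often called higher than lower in each of these comparisons, a skew that was not tested. Their median log2 fold changes were 0.26, 0.32 and 0.19, against 0.02, 0.04 and 0.03 over all genes tested. Against kif7co63/+ fish, 7 were higher and 3 lower in scoliotic fish, where 36.9% of all genes were called, 18.4% higher and 18.5% lower. In non-scoliotic fish 14 were higher and 4 lower, where 36.6% were called, 18.7% higher and 17.9% lower. By system, complement gave 5 higher and 1 lower of 21 in scoliotic and 8 higher and 2 lower in non-scoliotic fish against AB. Coagulation gave 6 higher and 2 lower of 15, and 7 higher and 2 lower. The count for kif7co63/+ against AB fell from 13 to 7 without AB fish 1 or without AB fish 3 and to 8 without kif7co63/+ fish 2. The count against kif7co63/+ fell from 10 to 6 in scoliotic fish without kif7co63/+ fish 1, and rose to 13 without scoliotic fish 1. In non-scoliotic fish it fell from 18 to 10 without kif7co63/+ fish 1 or non-scoliotic fish 3, and to 11 without kif7co63/+ fish 3. The shares of all genes called in these fits are not given here, so these shifts are not read as results about the 36 genes.

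**Figure D1:**
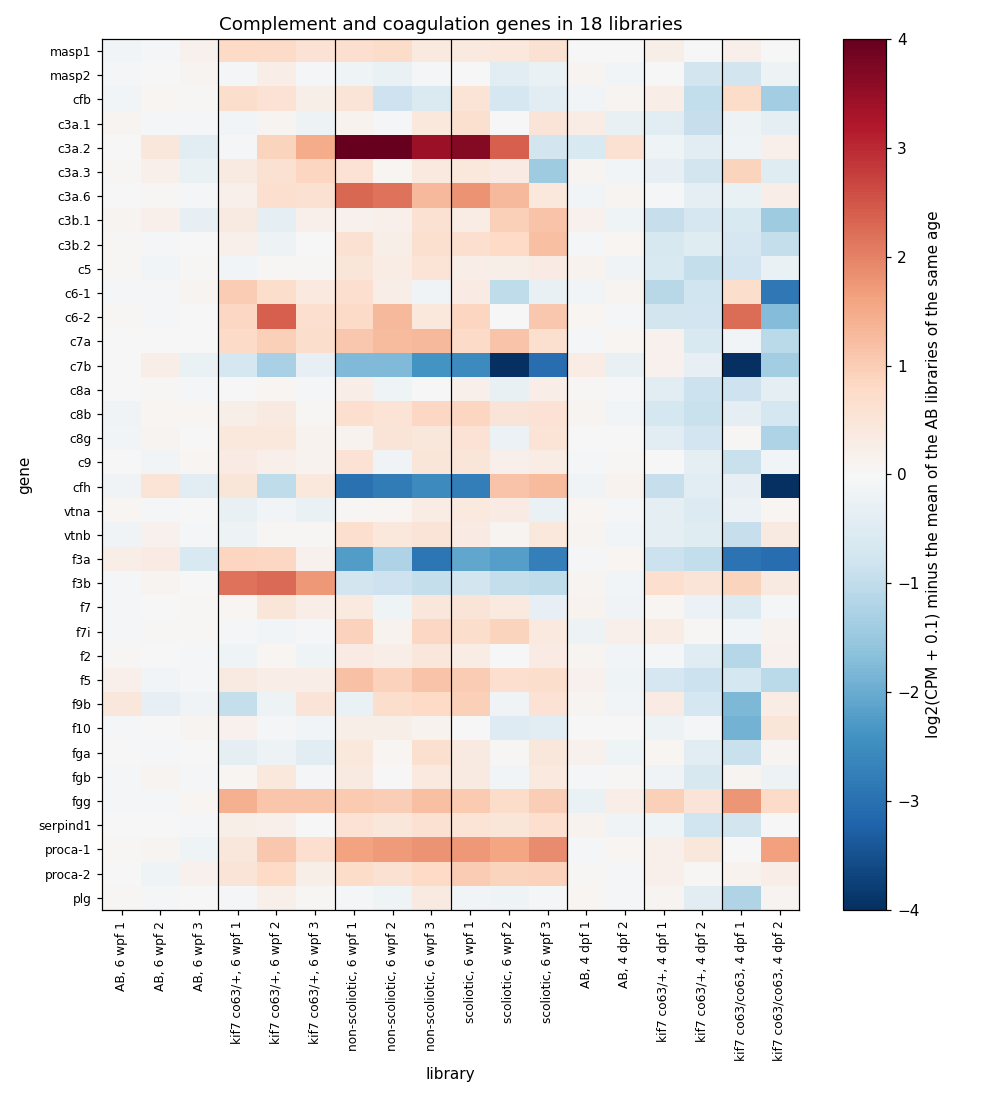
Levels of the 36 tested genes in the 18 libraries, 1 column a library, as log2(CPM + 0.1) minus the mean of the AB libraries of the same age, with red higher and blue lower than AB and the colour scale ending at 4 and −4. The row of fgg is red and those of f3a and c7b are blue in every kif7co63/co63 column.

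At the start of coagulation both tissue factor genes differed between the genotypes. Tissue factor, the membrane receptor that triggers clotting, has 2 genes in zebrafish. The level of f3a (chromosome 24, 31277360 to 31290706, GRCz11) was 6.44, 6.64 and 3.46 CPM in the AB fish and 9.76, 9.38 and 5.99 CPM in kif7co63/+ fish. It was 1.04, 2.18 and 0.625 CPM in non-scoliotic and 1.19, 1.07 and 0.709 CPM in scoliotic fish. All 6 homozygous fish lay below all 6 other fish. Against AB, f3a was 4.40-fold lower in non-scoliotic fish (log2 fold change −2.14 ± 0.50 SE, n = 3 and 3, adjusted p = 0.0132, edgeR) and 5.82-fold lower in scoliotic fish (−2.54 ± 0.35, adjusted p = 0.0016). Without non-scoliotic fish 2, the highest of its group, the non-scoliotic value was −2.78.

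At 4 dpf f3a was again lowest in the homozygous libraries, while AB and not kif7co63/+ was highest. The AB pools held 7.33 and 8.23 CPM, the kif7co63/+ pools 4.28 and 3.90 CPM and the kif7co63/co63 pools 0.905 and 0.861 CPM. The 3 genotypes did not overlap. It was the only one of the 36 genes called between kif7co63/co63 and AB pools (log2 fold change −3.14 ± 0.44, n = 2 and 2, adjusted p = 0.0347, edgeR), a comparison in which 0.509% of all genes were called, 0.263% higher and 0.246% lower. Its value stayed between −3.27 and −3.08 over the 11 alternatives run, with a highest adjusted p of 0.0394. For kif7co63/+ pools the difference of −0.88 ± 0.24 did not pass in edgeR (adjusted p = 0.0681). It passed in DESeq2 (−0.88, adjusted p = 0.0321) and in edgeR with no filter on low counts (−0.88, adjusted p = 0.0336). Without AB pool 1 it was −0.98, and without AB pool 2 it was −0.78.

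The other tissue factor gene, f3b (chromosome 2, 15100742 to 15106968), was called higher in heterozygous fish, where f3a was not called (0.61 ± 0.29, adjusted p = 0.129). It stood at 11.5, 13.3 and 12.2 CPM in AB and at 56.0, 60.0 and 41.2 CPM in kif7co63/+ fish, a 4.26-fold difference (log2 fold change 2.09 ± 0.15, adjusted p = 6.71e-05, edgeR). Both homozygous groups lay below AB, with 7.29, 6.93 and 6.29 CPM in non-scoliotic fish (−0.90 ± 0.12, adjusted p = 0.0017) and 7.32, 6.25 and 6.05 CPM in scoliotic fish (−0.99 ± 0.13, adjusted p = 0.0015). None of the 4 groups of that age overlapped another except the homozygous pair. Set against kif7co63/+ fish, f3b was 8.02-fold lower in scoliotic fish (−3.00 ± 0.17, adjusted p = 0.000166) and lower by −2.95 ± 0.17 in non-scoliotic fish (adjusted p = 0.000147), and f3a gave −3.08 ± 0.30 (adjusted p = 0.00076) and −2.71 ± 0.46 (adjusted p = 0.0047). At 4 dpf the order was not the same: 6.62 and 5.62 CPM in AB, 9.68 and 8.83 in kif7co63/+ and 11.3 and 7.89 in kif7co63/co63 pools. Neither difference from AB passed the test at that age (0.65 ± 0.22 and 0.64 ± 0.38). Together the pair of genes summed to 15.7 to 19.9 CPM in AB, 47.2 to 69.4 in kif7co63/+, 6.92 to 9.11 in non-scoliotic and 6.75 to 8.51 in scoliotic fish at 6 wpf.

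Factor VII, the protease that tissue factor activates, is encoded by f7. Its neighbour on chromosome 1 is f7i, with f10 next in line. What the product of f7i does was not examined, and its level is not read as a level of factor VII. The level of f7i was 32.2, 35.3 and 35.8 CPM in AB and 33.4, 31.8 and 32.8 CPM in kif7co63/+ fish. It was 65.2, 37.7 and 60.5 CPM in non-scoliotic and 55.9, 63.7 and 45.1 CPM in scoliotic fish, all above the fish of the other genotypes. Scoliotic fish differed from kif7co63/+ by 0.75 ± 0.14 on the log2 scale (adjusted p = 0.00613, edgeR) and from AB by 0.60 ± 0.13 (adjusted p = 0.0109). The level of f7 ranged from 16.8 to 29.7 CPM over the 12 fish, and edgeR's test of 2 groups called it in none of the comparisons at 6 wpf. Against AB it passed in edgeR without non-scoliotic fish 2 (0.35, adjusted p = 0.028) and without scoliotic fish 3 (0.37, adjusted p = 0.0312).

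**Figure D2:**
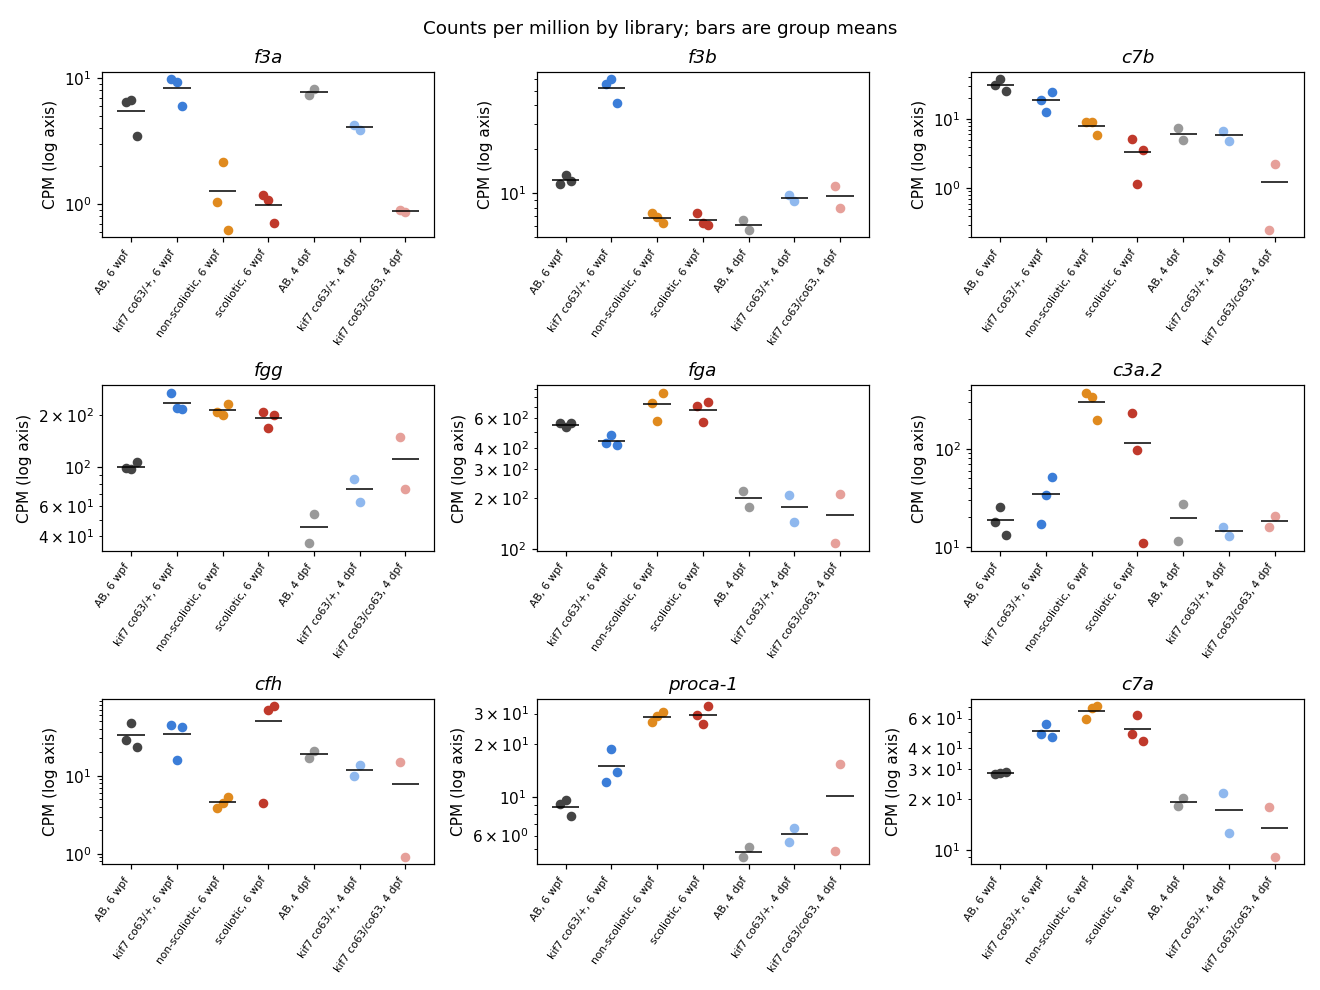
CPM of 9 genes by library on log axes, with 1 point a library and a bar at each group mean, for the 4 groups at 6 wpf and the 3 at 4 dpf. For f3a the points of the kif7co63/co63 libraries lie at 0.625 to 2.18 CPM at both ages, below every AB and kif7co63/+ point, and for f3b the kif7co63/+ fish stand alone at 41.2 to 60.0 CPM.

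Among the factors that carry the cascade to thrombin, f5, the cofactor of factor Xa, was called in both homozygous groups. It stood at 49.7, 39.7 and 41.2 CPM in AB, 56.1, 52.5 and 51.8 in kif7co63/+, 97.7, 82.3 and 95.9 in non-scoliotic and 88.6, 69.3 and 70.5 in scoliotic fish. The homozygous fish all lay above the other fish, by log2 fold changes of 1.03 ± 0.11 (non-scoliotic, adjusted p = 0.000839, edgeR) and 0.73 ± 0.13 (scoliotic, adjusted p = 0.00508) against AB. The gene for thrombin's precursor, f2, was called only in non-scoliotic fish (0.30 ± 0.09 against AB, adjusted p = 0.033), and whether that differed from scoliotic fish did not pass the test (−0.12 ± 0.10). In f10, factor X, the values were 102 to 116 CPM in AB and 75.3 to 107 in scoliotic fish (−0.37 ± 0.14, adjusted p = 0.0759, edgeR). That difference passed in DESeq2 (−0.38, adjusted p = 0.0376) and in edgeR without scoliotic fish 1 (−0.55, adjusted p = 0.00671). The factor IX gene f9b varied from 2.51 to 9.66 CPM without separating any groups at 6 wpf.

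Fibrinogen is a hexamer with a pair of each of its 3 chains, encoded by fga, fgb and fgg. The gamma chain gene fgg (chromosome 1, 25669799 to 25679383) lies apart from fga and fgb, which are neighbours. Its level was 98.7, 97.5 and 107 CPM in AB, 269, 219 and 218 in kif7co63/+, 210, 200 and 233 in non-scoliotic and 209, 169 and 202 in scoliotic fish. No fish with the allele overlapped AB. The differences from AB were 2.33-fold in kif7co63/+ (1.22 ± 0.12, adjusted p = 0.000258, edgeR), 2.05-fold in non-scoliotic (1.04 ± 0.10, adjusted p = 0.000538) and 1.82-fold in scoliotic fish (0.86 ± 0.11, adjusted p = 0.00112). These 3 comparisons share the AB fish. In the same fish fgb differed from AB by 0.15, 0.21 and 0.17 on the log2 scale, and none passed.

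The alpha chain gene fga stood at 560, 531 and 562 CPM in AB and 429, 476 and 414 in kif7co63/+ fish (−0.32 ± 0.10, adjusted p = 0.0417, edgeR). It was 744, 582 and 851 CPM in non-scoliotic and 710, 572 and 746 in scoliotic fish, above kif7co63/+ in every fish (0.71 ± 0.16, adjusted p = 0.013, and 0.62 ± 0.14, adjusted p = 0.0127). The lower level in kif7co63/+ was no longer called without AB fish 1, 2 or 3 or without kif7co63/+ fish 1 or 3, at −0.35 to −0.30. The difference between scoliotic and kif7co63/+ fish missed the threshold without kif7co63/+ fish 1 (0.60, adjusted p = 0.0563). Per kilobase, fgg relative to the mean of fga and fgb was 0.230 to 0.263 in AB, 0.475 to 0.704 in kif7co63/+, 0.389 to 0.474 in non-scoliotic and 0.368 to 0.421 in scoliotic fish. At 4 dpf the ratio was 0.229 and 0.354 in AB, 0.575 and 0.601 in kif7co63/+ and 1.12 and 0.510 in kif7co63/co63 pools.

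**Figure D3:**
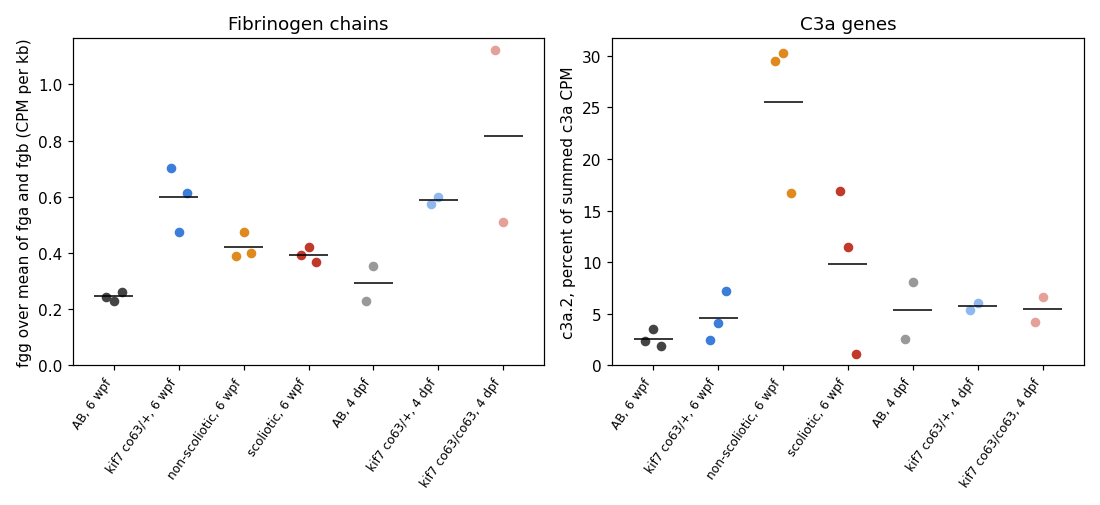
Left, the level of fgg over the mean of fga and fgb, each as CPM per kilobase, and right, c3a.2 as a percent of the summed CPM of the 4 c3a genes, with 1 point a library and a bar at each group mean. At 6 wpf the AB fish lie at 0.230 to 0.263 on the left and every fish with the allele lies at 0.368 or above, while on the right the non-scoliotic fish reach 16.7% to 30.3% and the scoliotic fish spread from 1.08% to 16.9%.

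All 3 tested inhibitor identifiers of coagulation, 2 of them for protein C, were called higher in both homozygous groups than in AB at 6 wpf. Of all genes tested, 21.2% were called higher in non-scoliotic and 19.2% in scoliotic fish. With so few genes, this count is not read as a result about inhibitors as a class. Protein C, which inactivates factors V and VIII, is covered by 2 overlapping gene models on chromosome 2, so reads could be split between them. The first, proca-1, stood at 9.11, 9.56 and 7.75 CPM in AB, 12.1, 18.8 and 14.0 in kif7co63/+, 26.7, 29.1 and 30.5 in non-scoliotic and 29.6, 26.2 and 33.0 in scoliotic fish. The groups followed each other without overlap from AB to kif7co63/+ to the homozygous fish. Against AB the log2 fold changes were 0.77 ± 0.18 (adjusted p = 0.0126, edgeR), 1.66 ± 0.12 (adjusted p = 0.000272) and 1.68 ± 0.13 (adjusted p = 0.000227). The second, proca-2, was 9.39, 8.17 and 10.4 CPM in AB, 13.3, 16.2 and 10.9 in kif7co63/+, 15.5, 14.3 and 16.2 in non-scoliotic and 18.9, 17.4 and 17.8 in scoliotic fish (0.88 ± 0.13 in scoliotic fish, adjusted p = 0.00193). Heparin cofactor II, serpind1, was 27.2, 27.2 and 26.3 CPM in AB, 31.4, 31.3 and 27.2 in kif7co63/+, 40.02, 37.0 and 41.2 in non-scoliotic and 39.2, 37.6 and 43.1 in scoliotic fish. Its log2 fold change was 0.50 ± 0.08 in each homozygous group. Plasminogen, plg, was called in none of these comparisons, with 247 to 354 CPM over the 12 fish.

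**Figure D4:**
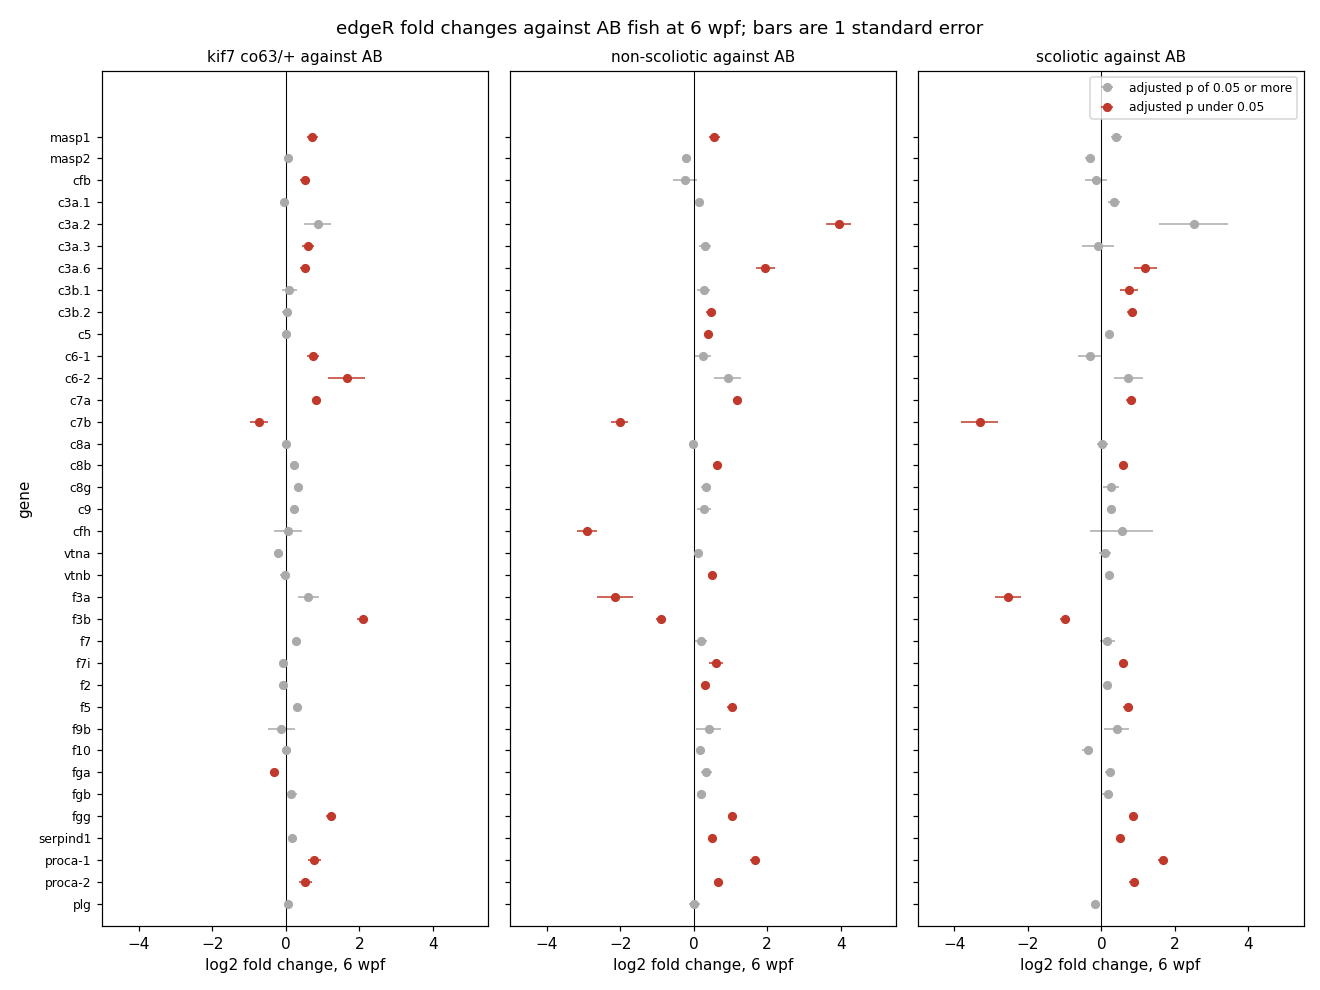
Log2 fold changes of the 36 tested genes against AB at 6 wpf in kif7co63/+, non-scoliotic and scoliotic fish, with bars of 1 standard error and red points for an adjusted p under 0.05. The largest values are 3.95 for c3a.2 in non-scoliotic fish and −3.31 for c7b in scoliotic fish, and f3b lies at 2.09 in kif7co63/+ but at −0.90 and −0.99 in the homozygous groups.

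At the centre of complement, the C3 genes differed among themselves. The main gene, c3a.1, ranged from 578 to 1036 CPM at 6 wpf, and edgeR's test of 2 groups called it in no comparison at that age. Some alternatives did call it higher in scoliotic fish. Against kif7co63/+ it passed in DESeq2 (0.47, adjusted p = 0.0368) and in edgeR with all libraries of that age in 1 fit (0.47, adjusted p = 0.0476). Against AB it passed in edgeR without scoliotic fish 2 (0.52, adjusted p = 0.00946). Its neighbour c3a.2 (chromosome 1, 56229674 to 56266731) stood at 18.1, 25.3 and 13.4 CPM in AB, 17.3, 33.9 and 51.6 in kif7co63/+ and 370, 335 and 198 in non-scoliotic fish. That made it 15.4-fold higher in non-scoliotic fish than in AB (log2 fold change 3.95 ± 0.34, adjusted p = 0.00043, edgeR), the largest fold change of the 36 genes in any of the comparisons. Scoliotic fish held 233, 97.4 and 10.9 CPM, so that 2 lay above all AB and kif7co63/+ fish and 1 below them. Their difference from AB did not pass (2.51 ± 0.93, adjusted p = 0.0687, edgeR), though it did in DESeq2 (adjusted p = 0.0427) and with all libraries of that age in 1 fit (2.60, adjusted p = 0.0214). Without scoliotic fish 3 it was 3.06 (adjusted p = 0.0043), and without any other single fish it stayed uncalled (1.45 to 2.77). Against kif7co63/+ it was called in non-scoliotic fish (3.11 ± 0.44, adjusted p = 0.00233), and in scoliotic fish only without fish 3 (2.27, adjusted p = 0.0235).

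The same direction was seen in c3a.6, with 19.7, 20.6 and 19.1 CPM in AB, 22.9, 31.6 and 29.9 in kif7co63/+, 98.4, 89.9 and 48.9 in non-scoliotic and 68.3, 48.6 and 26.3 in scoliotic fish. Every fish with the allele lay above AB. The log2 fold changes were 1.95 ± 0.26 in non-scoliotic (adjusted p = 0.0014, edgeR) and 1.195 ± 0.31 in scoliotic fish (adjusted p = 0.0201). The scoliotic call was lost without AB fish 1, 2 or 3, at 1.17 to 1.22. In kif7co63/+ fish against AB, edgeR called 2 of the 6 C3 genes higher, where 18.6% of all genes tested were called higher. DESeq2 there called c3a.3 (0.59, adjusted p = 0.00386) and c3a.6 (0.49, adjusted p = 0.00971). The level of c3a.3 was 27.8 to 38.0 CPM in AB and 42.6 to 59.7 in kif7co63/+. It was 35.2 to 49.3 CPM in non-scoliotic and 12.3 to 44.7 in scoliotic fish. In c3b.2, scoliotic fish held 49.5, 53.8 and 71.0 CPM and non-scoliotic fish 47.7, 36.2 and 48.9, against 32.2, 30.0 and 30.9 in AB and 35.5, 27.1 and 31.6 in kif7co63/+. Its log2 fold change against kif7co63/+ was 0.89 ± 0.17 in scoliotic fish (adjusted p = 0.00743). By edgeR's test of 2 groups at this age, its neighbour c3b.1 was called only in scoliotic fish against AB (0.76 ± 0.24, adjusted p = 0.0442). The levels were 31.6, 50.0 and 57.4 CPM against 27.9, 29.7 and 20.7. Scoliotic against kif7co63/+ fish passed for c3b.1 in DESeq2 (0.74, adjusted p = 0.0133). That difference also passed in edgeR with all libraries of that age in 1 fit (0.75, adjusted p = 0.0302) and without scoliotic fish 1 (0.96, adjusted p = 0.0172). Reads of such similar genes can be assigned to the wrong copy, so the split between them is uncertain. As a share of the summed CPM of c3a.1, c3a.2, c3a.3 and c3a.6, c3a.2 made up 1.91% to 3.52% in AB and 16.7% to 30.3% in non-scoliotic fish.

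Of the 3 tested genes of the starts of complement, 2 were called in kif7co63/+, 1 in non-scoliotic and 0 in scoliotic fish against AB. Of all genes tested, 36.2%, 43.1% and 42.1% were called in these comparisons. These counts are therefore not read as a result about the starts of complement. The lectin protease gene masp1 was higher in kif7co63/+ (0.72 ± 0.14, adjusted p = 0.00591, edgeR) and in non-scoliotic fish (0.56 ± 0.16, adjusted p = 0.026) than in AB, from 6.27 to 7.63 CPM in AB to 10.2 to 11.8 and 8.96 to 11.5. Scoliotic fish held 8.90 to 10.3 CPM (adjusted p = 0.0644). Its relative masp2 was called in no comparison at that age by edgeR's test of 2 groups. Against AB it passed in edgeR without scoliotic fish 1 (−0.45, adjusted p = 0.0241). Factor B, the catalytic part of the alternative convertase, varied widely among homozygous fish: cfb stood at 64.0, 25.3 and 30.2 CPM in non-scoliotic and 66.6, 28.5 and 33.4 in scoliotic fish, against 41.8, 47.6 and 46.5 in AB. By edgeR's test of 2 groups at this age, cfb was called only in kif7co63/+ fish against AB, with 73.2, 67.3 and 52.9 CPM (0.51 ± 0.14, adjusted p = 0.0197). In each homozygous group fish 1 lay above and the others below all AB fish. Without fish 1 cfb was called lower than AB in edgeR, in non-scoliotic (−0.78, adjusted p = 0.00327) and scoliotic fish (−0.62, adjusted p = 0.0071). Against kif7co63/+ these fits gave −1.22 and −1.05, both called. DESeq2 called non-scoliotic against kif7co63/+ fish with all fish (−0.71, adjusted p = 0.0469). The gene matched to c4b by identifier, a C4 gene, held 48.8 to 58.6 CPM in AB, 55.5 to 96.4 in kif7co63/+, 80.9 to 122 in non-scoliotic and 64.1 to 134 in scoliotic fish, and was called in non-scoliotic fish (0.82 ± 0.17, adjusted p = 0.00746).

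In the membrane attack complex the 2 C7 genes moved in opposite directions. C7 is the component that first inserts the growing complex into a membrane. The level of c7b (chromosome 21, 20901505 to 20915291) was 30.3, 37.1 and 25.6 CPM in AB, 18.8, 12.5 and 24.6 in kif7co63/+, 8.92, 8.93 and 5.81 in non-scoliotic and 5.17, 1.14 and 3.59 in scoliotic fish. None of the 4 groups overlapped. It was 4.05-fold lower in non-scoliotic fish than in AB (−2.02 ± 0.22, adjusted p = 0.00078, edgeR) and 9.89-fold lower in scoliotic fish (−3.31 ± 0.50, adjusted p = 0.00255). Against kif7co63/+ fish it gave −1.25 ± 0.28 (adjusted p = 0.0129) and −2.50 ± 0.52 (adjusted p = 0.0105). In kif7co63/+ fish it was lower by a log2 fold change of −0.73 ± 0.24 (adjusted p = 0.0422). That call was lost without AB fish 1 or 2 or without kif7co63/+ fish 1 or 2, at −0.75 to −0.52.

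The other gene, c7a (chromosome 8, 31872992 to 31899329), was 28.1, 28.4 and 29.0 CPM in AB, 48.4, 55.9 and 46.7 in kif7co63/+, 60.0, 69.1 and 70.8 in non-scoliotic and 48.6, 63.1 and 44.3 in scoliotic fish. All fish with the allele lay above AB, by log2 fold changes of 0.82 ± 0.10 (adjusted p = 0.000779, edgeR), 1.18 ± 0.09 (adjusted p = 0.000374) and 0.80 ± 0.14 (adjusted p = 0.00404). Per kilobase, c7b over c7a was 1.04 to 1.55 in AB, 0.264 to 0.622 in kif7co63/+, 0.0970 to 0.176 in non-scoliotic and 0.0213 to 0.126 in scoliotic fish. At its end c7b overlaps c6-2, which lies on the opposite strand. Whether the counting used strand is not given in the sources used here, so reads in the overlap cannot be assigned with certainty. The weakly read c6-2 held 0.641 to 0.693 CPM in AB and 1.26, 3.90 and 1.13 CPM in kif7co63/+ fish (1.65 ± 0.50, adjusted p = 0.0319). Without kif7co63/+ fish 2 it was 0.83 (adjusted p = 0.133), and without AB fish 1, 2 or 3 it missed the threshold at 1.62 to 1.68.

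Of the remaining terminal genes, c8b, a C8 chain, was higher in both homozygous groups. It stood at 33.8, 39.5 and 39.4 CPM in AB, 44.3, 48.0 and 38.8 in kif7co63/+, 59.5, 54.5 and 67.1 in non-scoliotic and 67.4, 53.4 and 56.5 in scoliotic fish (0.64 ± 0.11, adjusted p = 0.00382, and 0.58 ± 0.11, adjusted p = 0.0068, edgeR). Its span holds c8a on the other strand, which differed from AB by −0.02 to 0.02 on the log2 scale in the 3 groups. The precursor gene c5 was 115, 104 and 116 CPM in AB, 103, 115 and 115 in kif7co63/+, 157, 136 and 163 in non-scoliotic and 134, 131 and 142 in scoliotic fish. It was called in non-scoliotic fish (0.40 ± 0.10, adjusted p = 0.0183) and missed the threshold in scoliotic fish (0.21 ± 0.09, adjusted p = 0.0948). The gene c6-1 was 8.70, 8.71 and 9.81 CPM in AB and 18.5, 14.8 and 11.8 in kif7co63/+ fish (0.73 ± 0.17, adjusted p = 0.0127), and spread from 4.41 to 14.4 CPM over the homozygous fish. Neither c8g nor c9 was called against AB by edgeR's test of 2 groups. Some alternatives in edgeR did call them higher. For c8g these were kif7co63/+ fish with a mean of at least 1 CPM (0.35, adjusted p = 0.0442) or without kif7co63/+ fish 3 (0.42, adjusted p = 0.0124). It also passed without non-scoliotic fish 1 (0.42, adjusted p = 0.0179) and without scoliotic fish 2 (0.48, adjusted p = 0.00851). For c9 it was non-scoliotic fish without fish 2 (0.46, adjusted p = 0.0165).

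Factor H, which keeps C3 activation off host surfaces, split the scoliotic fish. The gene cfh (chromosome 22, 23641801 to 23668468) stood at 28.8, 46.9 and 23.7 CPM in AB, 44.7, 15.8 and 42.4 in kif7co63/+ and 3.92, 4.45 and 5.39 in non-scoliotic fish. Scoliotic fish held 4.54, 70.2 and 77.2 CPM. So fish 1 lay within the non-scoliotic range and fish 2 and 3 lay above every AB fish. Non-scoliotic fish were 7.47-fold below AB (−2.90 ± 0.28, adjusted p = 0.000578, edgeR) and differed from kif7co63/+ by −2.92 ± 0.39 (adjusted p = 0.00201). The difference of 3.48 ± 0.93 between scoliotic and non-scoliotic fish did not pass in edgeR (adjusted p = 0.442), but it did in DESeq2 (adjusted p = 0.0341). It passed in edgeR without scoliotic fish 1, at 4.01 (adjusted p = 0.00298), a setting that leaves 2 fish in that group. Scoliotic fish against AB gave 0.55 ± 0.86, and 1.08 (adjusted p = 0.0241) without scoliotic fish 1. Of 5 factor H-like genes on the same stretch, not among the 40, cfhl2 had the same split, at 0.359, 28.9 and 29.2 CPM in scoliotic fish and 0.193, 0.897 and 0.347 in non-scoliotic fish. In cfhl1, cfhl4 and cfhl5 scoliotic fish 1 was instead the highest of its group, with 19.0, 8.14 and 8.81 CPM in cfhl1, 39.6, 15.6 and 17.5 in cfhl4 and 14.3, 6.60 and 5.29 in cfhl5. The span of cfhl5 lies within that of cfhl4, so reads could be split between them and their values are not separate evidence. The weakly read cfhl3 held 0.652, 1.59 and 1.91 CPM. The vitronectin genes, whose product blocks membrane insertion of the complex, moved less. Of these vtnb was called in non-scoliotic fish (0.49 ± 0.11, adjusted p = 0.0114), and vtna in neither homozygous group against AB.

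When the homozygous groups were compared with each other, edgeR called 0 of the 36 genes and 0.38% of all genes (0.244% higher and 0.136% lower in scoliotic fish). Their median log2 fold change was −0.05 against a median near 0 over all genes tested. At an unadjusted p under 0.05 there were 4, namely cfh, f10 (−0.51 ± 0.14), c7b (−1.25 ± 0.52) and proca-2 (0.25 ± 0.09), and DESeq2 called 1, cfh. The shares of all genes under that unadjusted threshold and called by DESeq2 are not given here. The 0.38% above is no measure for these counts, and they are not read as results about the 36 genes. The standard error was widest for cfh and next for c3a.2 (−1.40 ± 0.90), the genes in which scoliotic fish differed most among themselves. For f3a, f3b and fgg the differences were −0.37 ± 0.53, −0.06 ± 0.16 and −0.14 ± 0.11.

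Between AB pools at 4 dpf and AB fish at 6 wpf, 27 were higher at 6 wpf and 1 lower, where 58.6% of all genes were called, 30.3% of all genes being higher and 28.2% lower. The members' share was 77.8%, with a median log2 fold change of 0.86 against a median near 0 over all genes. The lists of other tissues moved with age too: 13 of 18 liver genes were higher and 2 lower, and the liver genes summed to 10579 to 11118 CPM at 4 dpf and 21095 to 22293 at 6 wpf in AB. In such bulk samples more liver cells and more RNA per liver cell cannot be told apart. All 3 fibrinogen chains, all 3 tested coagulation inhibitors (2 of them overlapping models of protein C) and 8 of 9 terminal complement genes were higher at 6 wpf. Whether the difference from AB in homozygous libraries itself differed between the ages was tested as a contrast, by which 7 of the 36 genes were higher and 1 lower, where 13.9% of all genes were called, 6.44% higher and 7.49% lower.

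The largest rise with age was that of c7b, from 7.42 and 4.89 CPM at 4 dpf to 25.6 to 37.1 CPM at 6 wpf in AB (2.34 ± 0.24, adjusted p = 0.000129, edgeR). Next came c6-1, from 2.44 and 2.89 to 8.70 to 9.81 CPM (1.78 ± 0.21, adjusted p = 0.00026), and f7i, from 10.2 and 13.3 to 32.2 to 35.8 CPM (1.57 ± 0.15, adjusted p = 9.74e-05). The gene fga rose from 222 and 178 to 531 to 562 CPM (1.47 ± 0.14, adjusted p = 7.99e-05). In contrast masp1 was lower at 6 wpf, at 10.6 and 11.02 CPM in the pools and 6.27 to 7.63 CPM in the fish (−0.65 ± 0.18, adjusted p = 0.0147), a call that was lost without AB fish 1 (−0.58, adjusted p = 0.0564). Levels of f5, vtna, vtnb, c3a.2, c3a.3, c3a.6, c6-2 and f3a did not pass the test between the ages.

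**Figure D5:**
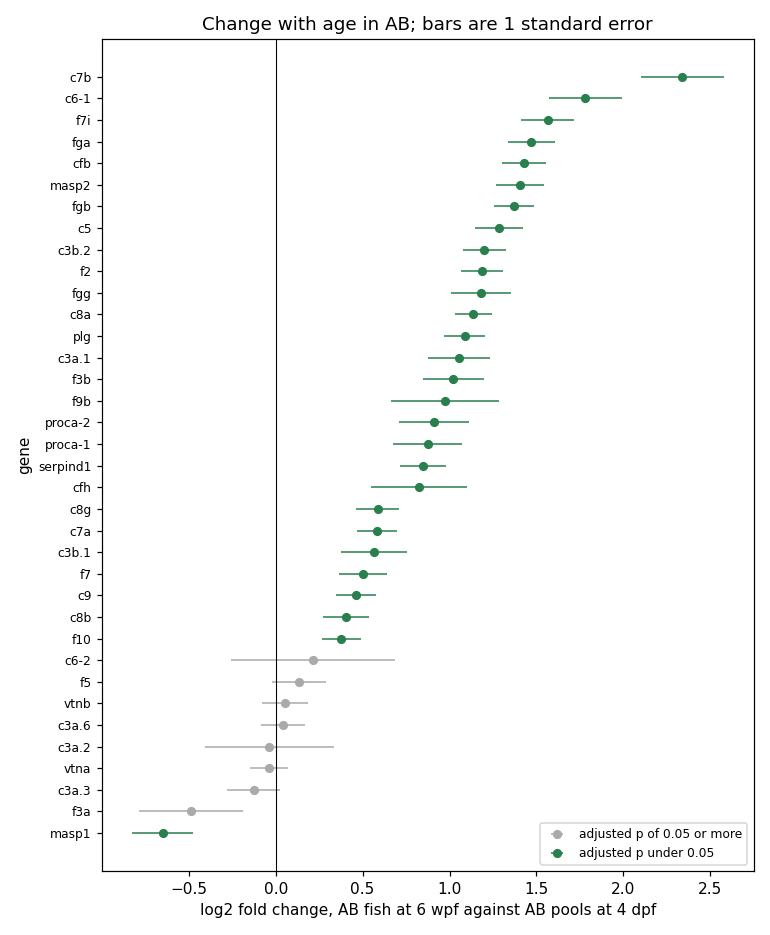
Log2 fold change of each of the 36 tested genes between AB fish at 6 wpf and AB pools at 4 dpf, ordered by size, with bars of 1 standard error and green points for an adjusted p under 0.05. The points run from 2.34 for c7b down to −0.65 for masp1, and 27 of the 28 called genes lie to the right of 0.

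At 4 dpf few of these genes passed edgeR's test between genotypes, and those that did were lower than in AB. In kif7co63/+ pools 3 genes were lower than in AB and none higher, where 6.21% of all genes were called, 3.84% higher and 2.37% lower. They were c5, c8b and f5. Their levels in the AB pools and then in the kif7co63/+ pools were 51.2, 41.2, 30.1 and 23.9 CPM for c5, 31.0, 26.2, 17.6 and 15.3 for c8b, and 44.7, 35.2, 25.0 and 21.7 for f5. The log2 fold changes were −0.72 ± 0.18 (adjusted p = 0.0495, edgeR), −0.75 ± 0.17 (adjusted p = 0.0408) and −0.72 ± 0.17 (adjusted p = 0.045). Each call was lost without either kif7co63/+ pool, when no gene of the 36 was called. It was lost in c5 and f5 without AB pool 1 too (−0.58 and −0.56). Without AB pool 2 more of the 36 genes were called, and the share of all genes called in that fit is not given here. Among the genes that only an alternative called was fgg, which was higher, at 86.2 and 63.3 CPM against 36.5 and 53.7 in AB. Its 0.78 ± 0.23 missed the threshold in edgeR (adjusted p = 0.0823) but passed in DESeq2 (adjusted p = 0.0108), with no filter (adjusted p = 0.00822) and without AB pool 2 (1.099, adjusted p = 1.7e-05).

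In kif7co63/co63 pools, where f3a was the only call, the 2 pools differed widely in other genes. The level of cfh was 14.9 CPM in pool 1 and 0.913 in pool 2, against 17.0 and 20.6 in AB. That of c7b was 0.250 and 2.25 CPM, against 7.42 and 4.89 in AB (−2.30 ± 0.87, adjusted p = 0.566), so that the homozygous libraries lay below AB at both ages. Without pool 2 the log2 fold change of c7b was −4.62. In edgeR it was called with the replicate number as a block (−2.87, adjusted p = 0.00431) and with that block crossed (−2.88, adjusted p = 0.011). The replicate numbers mark no known shared batch, so these calls are not read as support for a difference in c7b. The level of fgg was 149 and 75.4 CPM, against 36.5 and 53.7 in AB (1.31 ± 0.45, adjusted p = 0.468), again on the same side of AB as at 6 wpf. The level of f10 was 22.6 and 118 CPM and that of cfb 28.2 and 6.34. Without pool 1 or without pool 2 more of the 36 genes were called, in fits in which the lone pool is assumed to vary like the AB pools. The share of all genes called in those fits is not given here, so the rise is not read as a result about these genes. Of the 36 genes, 26 had a negative log2 fold change in kif7co63/co63 pools and 30 in kif7co63/+ pools, with medians of −0.32 and −0.29 against 0.02 and −0.01 over all genes. The 2 comparisons share the AB pools.

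Other genes of these pathways, a list of 37 complement and 45 coagulation symbols beside the 40, were read in the same way. In scoliotic fish against AB 5 of 24 tested complement genes were higher and 4 lower, and in non-scoliotic fish 9 and 5 of 24. In kif7co63/+ it was 6 and 1 of 25. Of 29 tested coagulation genes, 9 were higher and 3 lower in scoliotic, 13 and 3 in non-scoliotic and 10 and 4 in kif7co63/+ fish. Of all genes tested, 42.1%, 43.1% and 36.2% were called in these comparisons in that order. The higher shares were 19.2%, 21.2% and 18.6% and the lower shares 23%, 21.9% and 17.6%. These list counts are therefore not read as results about the listed genes. Of the other c3a genes of the cluster, c3a.4 and c3a.5 were higher than AB in both homozygous groups: c3a.4 held 35.3 to 44.8 CPM in AB and 79.5 to 151 in the 6 homozygous fish (1.40 and 1.60 on the log2 scale in scoliotic and non-scoliotic fish), and c3a.5 held 1.26 to 1.54 and 5.57 to 19.3 CPM (2.48 and 3.45). In kif7co63/+ neither was called. In scoliotic fish 3 c3a.4 was the highest of its group, at 151 CPM, while c3a.2 and c3a.6 were the lowest of theirs. The high level of f3b in kif7co63/+ fish was shared by f2rl1.2, a protease-activated receptor gene, at 7.58 to 8.40 CPM in AB, 40.4 to 65.1 in kif7co63/+ and 4.36 to 8.04 in the homozygous fish (2.72 ± 0.18 on the log2 scale in kif7co63/+, adjusted p = 3.7e-05, edgeR). The cytokine feedback gene socs3a stood at 7.35 to 17.4 CPM in AB, 227 to 351 in kif7co63/+ and 9.56 to 23.0 in the homozygous fish. Whether these genes and f3b share a source was not tested.

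Liver genes were read beside these results, since most of the 40 genes are expressed there. Of 18 liver genes, 4 were higher and 3 lower in scoliotic, 5 and 3 in non-scoliotic and 3 and 2 in kif7co63/+ fish against AB. The shares of all genes called there were 42.1%, 43.1% and 36.2%, so these counts are not read as results about liver genes. The defining hepatocyte genes were far above 0 in every fish: fabp10a, a liver fatty acid binding protein, ranged from 1008 to 1891 CPM and tfa, transferrin, from 4139 to 8607. In the homozygous fish the 18 genes summed to 24488 to 28956 CPM, against 21095 to 22293 in AB and 19081 to 23146 in kif7co63/+. Much of that higher sum lay in tfa, whose group means were 4749 CPM in AB, 8251 in non-scoliotic and 7240 in scoliotic fish. Taken gene by gene, the middle change from AB on the log2 scale was 0.22 in non-scoliotic and 0.14 in scoliotic fish. By group, fabp10a held 1008 to 1127 CPM in AB, 1085 to 1607 in kif7co63/+, 1671 to 1891 in non-scoliotic and 1263 to 1812 in scoliotic fish. Whether liver RNA as a whole was higher in homozygous fish was not tested. Some liver genes stood far apart. The gene tdo2a held 0.287 to 0.606 CPM in AB, 4.90 to 27.4 in kif7co63/+ and 0.337 to 0.486 in non-scoliotic fish. Scoliotic fish held 0.337, 32.8 and 0.732 CPM of tdo2a. Another, ambp, is the gene of a plasma protease inhibitor. It stood at 85.4 to 125 CPM in AB, 83.9 to 116 in kif7co63/+ and 1.11 to 1.98 in the 6 homozygous fish. At 4 dpf it was 55.5 and 61.3 CPM in AB, 37.9 and 34.3 in kif7co63/+ and 0.616 and 2.34 in kif7co63/co63 pools. Neutrophil and macrophage genes (8 symbols) summed to 49.2 to 121 CPM in AB and 74.3 to 99.5 in the homozygous fish. Of 6 tested, 5 were higher in scoliotic and 4 in non-scoliotic fish, where 19.2% and 21.2% of all genes were higher. Their part in the complement results was not tested.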

How the data were processed

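RNA-seq was made from whole zebrafish, as single fish at 6 wpf and pools of 20 embryos at 4 dpf. The authors aligned reads with HISAT2 to GRCz11 and deposited 1 table of raw counts per gene, which was used here as deposited. The submitters' notes also name fastp, StringTie, featureCounts and DESeq2. The annotation release and whether counting used strand are not given in the sources used here. Fold changes and p-values that the authors computed between scoliotic and kif7co63/+ fish, deposited in a further table, were not used.

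Counts were tested with edgeR 4.0.16 (R 4.3.3): TMM scaling, filterByExpr (counts of at least 10, totals of at least 15), and the quasi-likelihood test on the 2 groups compared. The age contrast was fitted on all 18 libraries. P-values were adjusted by Benjamini-Hochberg over all genes tested, with a threshold of 0.05, and ± is 1 standard error of the log2 fold change. The fits were tested on simulated data. Alternatives were RLE scaling, DESeq2 1.42.0, no filter, a mean of at least 1 CPM, all libraries of 1 age in 1 fit, a replicate block, leaving out each library, and non-scoliotic in place of scoliotic fish in the age contrast. A crossed block at 4 dpf was added after seeing the data. Figures were drawn with matplotlib 3.10.9.

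The genes and lists were chosen with earlier results of these data known. Values in every library were given for the called genes with the 4 largest changes in each direction in a comparison, for all called between scoliotic and non-scoliotic fish or in the age contrast, and for some others chosen after their values were seen. Library totals were 47888282 to 69698533 reads at 6 wpf and 44503110 to 58608873 at 4 dpf. The limit for a count of 0 is 3 counts of the total and covers counting error only. The sources used here do not say whether fish and pools of a group came from separate clutches, so p-values measure the spread between these samples. A result for a further gene of these pathways is not reported here.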

Additional observations from a re-analysis of the deposited data

Results flagged for a closer look

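The difference between homozygous and AB libraries was compared between the ages, as scoliotic against AB fish at 6 wpf minus kif7co63/co63 against AB pools at 4 dpf. By edgeR's test of this contrast over all 18 libraries, 7 of the 36 genes were higher and 1 lower, where 13.9% of all genes were called. The higher ones were c3b.1 at 1.80 ± 0.42 SE on the log2 scale, c3b.2 at 1.72 ± 0.26, f5 at 1.68 ± 0.24, c7a at 1.38 ± 0.36, c8b at 1.18 ± 0.23, serpind1 at 0.90 ± 0.28 and c5 at 0.77 ± 0.24. The lower one was f3b at −1.56 ± 0.27. In c3b.1, c3b.2 and f5 the 2 kif7co63/co63 pools lay below the AB pools and the scoliotic fish above the AB fish. The values of c3b.1 at 4 dpf were 19.9 and 15.6 CPM in AB and 11.6 and 6.50 in kif7co63/co63, those of c3b.2 12.8, 14.5, 8.49 and 7.03, and those of f5 44.7, 35.2, 24.6 and 18.9. In c8b and c5 the order was the same, with 31.0, 26.2, 22.3 and 17.5 CPM and 51.2, 41.2, 27.1 and 38.6 CPM. The pools of c7a were 18.1 and 20.3 CPM in AB and 17.9 and 9.06 in kif7co63/co63, and those of serpind1 16.4, 13.7, 9.01 and 14.9. Both kif7co63/+ pools also lay below both AB pools in c3b.1, c3b.2, f5, c8b, c5 and serpind1. They held 8.71 and 9.79 CPM of c3b.2, 17.6 and 15.3 of c8b, and 30.1 and 23.9 of c5. The lower levels of these genes at 4 dpf were thus not limited to kif7co63/co63 pools. Both genotypes were set against the same 2 AB pools. In c7a the kif7co63/+ pools lay on either side of the AB pools. Whether the contrast is particular to homozygous libraries was not tested.

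The count of 8 fell without AB pool 1 at 4 dpf and rose without kif7co63/co63 pool 2. The shares of all genes called in these 2 fits are not given here. Over the 23 alternatives run for each gene, f5, c8b, c3b.2 and f3b stayed past the threshold in all. The calls of c3b.1 and c7a were lost without AB pool 1 (1.62 and 1.46), c7a also without AB pool 2 (1.29), and c3b.1 also with non-scoliotic in place of scoliotic fish (1.29, adjusted p = 0.0518). The calls of c5 and serpind1 held in 8 and 5 of the 23 alternatives, with adjusted p up to 0.200 and 0.185 in edgeR. Single fish are compared with pools in this contrast, and age and library type cannot be told apart.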

How the results depend on the processing

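The 53 named changes of 21 genes were recomputed under 707 alternatives in all. None changed direction, 634 kept their side of the threshold and 73 lost the call, 57 of these when 1 library was left out. DESeq2 and a mean of at least 1 CPM lost no call. With all libraries of 1 age in 1 fit, the number of genes called was 7 in place of 13 for kif7co63/+ against AB fish, 16 in place of 10 for scoliotic against kif7co63/+ fish, and 0 in place of 3 for kif7co63/+ against AB pools. DESeq2 and no filter each called 7 in the last of these comparisons, and DESeq2 called 1 in place of 0 between scoliotic and non-scoliotic fish. Leaving out 1 library gave 12 to 18 calls for scoliotic, 14 to 21 for non-scoliotic and 7 to 13 for kif7co63/+ fish against AB. Against kif7co63/+ it gave 6 to 13 for scoliotic and 10 to 16 for non-scoliotic fish, and 0 to 1 between these. At 4 dpf it gave 1 to 10 calls for kif7co63/co63 and 0 to 10 for kif7co63/+ pools, with 22 to 26 for age in AB and 4 to 18 for the age contrast. Where 1 pool was left, it was assumed to vary like the others. The share of all genes called in each alternative is not given here, so a change in a count is not read as a result about these genes. The cause of these shifts was not tested. Replicate numbers are those of the sample titles, and the column names of the deposited counts number the mutant pools at 4 dpf differently. Nothing in the labels says that a replicate number marks a shared batch, and the correlations of same-numbered deviations were not all over 0.1 in any comparison, so the numbers were not taken as pairs. They were highest between scoliotic and non-scoliotic fish, at 0.436, 0.293 and 0.0378, where cfb and the oocyte sum were highest in fish 1 and lowest in fish 2 of both groups. With the replicate block, calls were 13, 16 and 10 against AB and 9 and 14 against kif7co63/+ fish in the same order of groups. They were 0 between the homozygous groups, 3 for kif7co63/co63 (f3a, c7b and cfh) and 3 for kif7co63/+ pools. Because the deviations of the kif7co63/co63 and AB pools had a correlation of −0.127, a crossed block was added after seeing the data and gave 2 calls, f3a and c7b. With 2 pools a group, the 4 dpf comparisons have the least precision.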
